A study of Mus musculus with 15 samples.

Results

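The response of the hippocampus to morphine was compared between mouse pups under severe and under mild neonatal stress, gene by gene. The quantity examined is the interaction of morphine with stress severity, (SSM minus SSS) minus (MSM minus MSS), where SSM is severe stress with morphine, SSS severe stress with saline vehicle, MSM mild stress with morphine and MSS mild stress with saline vehicle. It was formed for 19938 genes from 12 of the 15 arrays of the series, 3 per group, and the 3 arrays of the untreated controls (CC) added to the estimate of the spread and served as a reference level. All groups held male C57BL/6 pups, treated from postnatal day 5 to 9 with birth counted as day 1, in litters of at most 7 per dam, and RNA came from the right hippocampus on day 9. The nature of the stress, the morphine dose and the litter of each pup are not stated in the labels. Nothing there says how the pups of a group were spread over litters, so the p-values below measure the spread between these arrays only.

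Morphine acts mainly through the mu opioid receptor, a receptor coupled to inhibitory G proteins that lowers cAMP, opens potassium channels and closes calcium channels. In the hippocampus it sits largely on interneurons, so that opioids release pyramidal cells from inhibition. Stress reaches the same tissue through glucocorticoids and corticotropin-releasing hormone, and opioid peptides are released during stress. An interaction of 0 on the log2 scale means the same fold difference with morphine at both stress levels. A positive interaction means that the morphine difference was more positive under severe stress, and a negative one that it was more positive under mild stress.

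No gene differed in its morphine response between the stress levels at the threshold used. With limma's moderated test and Benjamini-Hochberg adjustment over all genes, 0 of 19938 genes (0%) had an adjusted p under 0.05, and the smallest adjusted p was 0.959. At an unadjusted p under 0.05 there were 727 genes (3.65%), of which 650 (3.26%) had a positive and 77 (0.386%) a negative interaction. With no interaction in any gene, 997 would be expected at that cut, more than were found. That order depended on single arrays. Positive interactions alone numbered 1436 without SSM replicate 2 and 1201 without SSM replicate 1, with 0 genes past the threshold in either case. Nor did the 2 morphine differences it is made of hold any gene past the threshold: 0 genes (0%) passed for SSM against SSS, with a smallest adjusted p of 0.494 and 9.37% of genes at an unadjusted p under 0.05. Of the latter, 1736 were higher and 132 lower in SSM, on values as deposited, in which SSM replicate 3 had a raised median. For MSM against MSS 0 genes (0%) passed, with a smallest adjusted p of 1.0 and 2.57% of genes at an unadjusted p under 0.05. There 316 were higher and 197 lower in MSM.

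The precision of these values bounds what could have been seen. The standard error of the interaction had a median of 0.114 over genes, and its 95% interval a median half-width of 0.243, both log2 differences. For 91.9% of genes the whole interval lay within a 1.5-fold difference in either direction, and for 98.5% within a 2-fold difference. Only 97 genes had an interaction beyond 0.5 in size and 7 beyond 1. Those 7 were Ttr, Clic6, Kcnj13 and Ptgds, all known from choroid plexus or its surroundings, Tac1 and Rxrg, known from striatal neurons, and the clone G530011O06Rik, and they were chosen here after their values were seen.

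The excess of positive over negative interactions moved with the scaling of the arrays. One array, SSM replicate 3, had a gene median of 6.39, against 6.22 to 6.27 for the other 14, and its genes lay a median of 0.15 above their own medians over the arrays. The median interaction over all genes was 0.0554 and 69.5% of genes were above 0, while the median of SSM minus SSS was 0.0557 and that of MSM minus MSS 0.00012. After quantile normalization the median was 0.00049, 50.2% of genes were above 0, and the 841 genes at an unadjusted p under 0.05 fell into 436 positive and 405 negative. Positive interactions thus made up 89.4% of the 727 genes as deposited, 62.2% after median centring, 51.8% after quantile normalization and 50.1% without SSM replicate 3. Values below are as deposited and are to be read against the all-gene median of 0.0554.

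**Figure D1:**
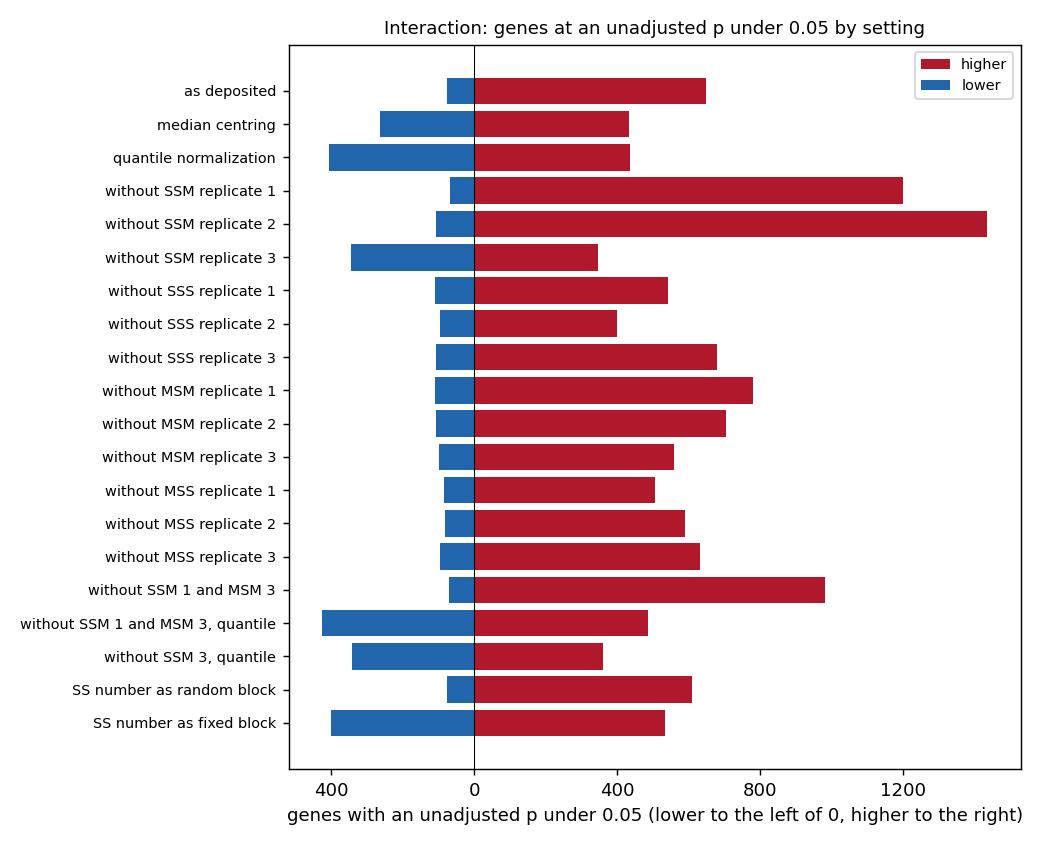
Number of genes with an unadjusted p under 0.05 for the interaction, positive to the right and negative to the left of 0, for the values as deposited, under other scalings and without single arrays or pairs. The 650 positive and 77 negative genes as deposited stand beside 436 and 405 after quantile normalization and 347 and 345 without SSM replicate 3.

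The morphine differences at the 2 stress levels share no array, and across genes they had a Pearson correlation of 0.31 and a Spearman correlation of 0.19. They had the same sign in 54.1% of genes. Genes are not independent replicates, and the correlation stood at 0.00 without SSM replicate 1 and MSM replicate 3, a pair of arrays with high markers of neighbouring brain regions described further on. Among genes at or above the median level of 6.25 it was 0.38, and among dimmer genes 0.20. For 143 genes (0.717%) the 3 morphine arrays lay apart from the 3 saline arrays in the same direction at both stress levels. Morphine was above saline in 138 of them and below in 5. In 48 genes (0.241%) all SSM arrays lay above all SSS arrays and all MSM arrays below all MSS arrays, and in 4 genes (0.0201%) the reverse held. Groups of 3 arrays can lie apart by chance. The number of genes expected to do so was not estimated, so no conclusion is drawn from these counts.

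**Figure D2:**
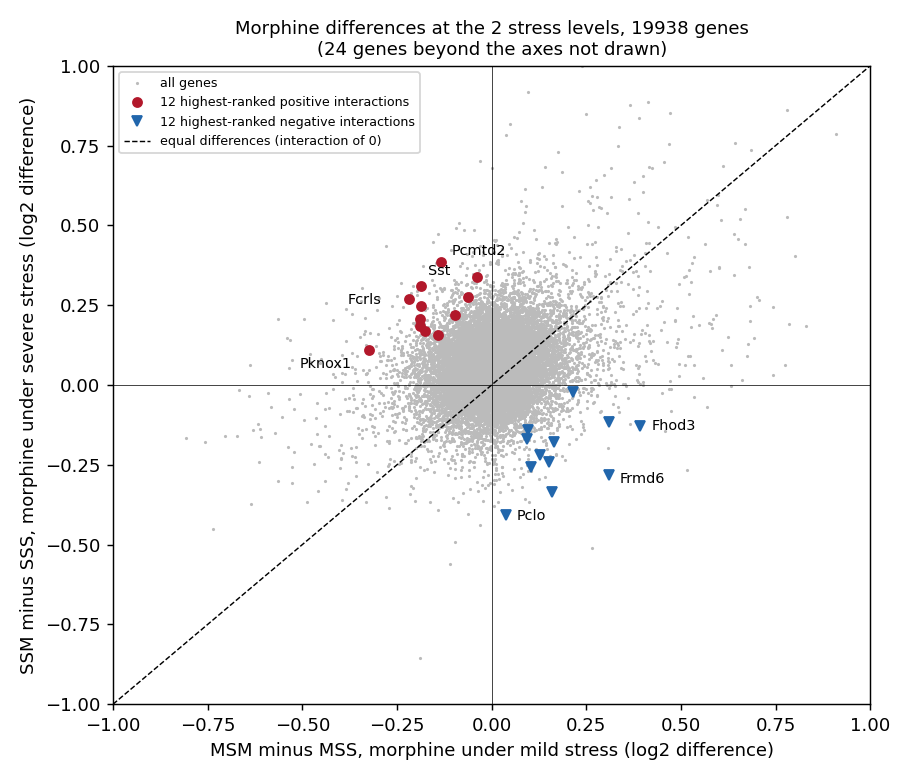
Log2 morphine difference under severe stress (SSM minus SSS, vertical) against that under mild stress (MSM minus MSS, horizontal), 1 point per gene, with the 12 positive and 12 negative interactions of smallest p among genes at or above the median level. All 24 marked genes lie in the quadrants of opposite sign, and 24 genes beyond a difference of 1 are not drawn.

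The genes described individually were taken by rule from those at or above the median level, the 12 positive and 12 negative interactions with the smallest p. Each had an adjusted p of 0.959, so none is a call. The positive ones were Fcrls, Pknox1, Nars2, Pcmtd2, Arntl, Hibch, Trmt2a, Pfn4, Zfp799, Efcc1, Sst and Arl14ep, with interactions of 0.30 to 0.52. The negative ones were Lifr, Myo19, Itpripl1, Fras1, Cdv3, Sdk1, Frmd6, Otud3, Fhod3, Pclo, Cox20 and Rims4, with interactions of -0.59 to -0.24. In all 24 the morphine difference had opposite signs at the 2 stress levels, which the choice by interaction favours, and in 7 the groups lay apart at both levels. The sign of the interaction was kept in all 24 under every scaling, model and omission tried. The choice by smallest p on these same arrays favours that as well, so no conclusion is drawn from it. The smallest adjusted p that any of the 24 reached was 0.341.

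Fcrls, an Fc receptor-like scavenger receptor of microglia, had the smallest p of all named genes. It read 7.73, 7.67 and 7.74 log2 units in SSM pups, against 7.46, 7.33 and 7.54 in SSS pups. In MSM pups it read 7.32, 7.33 and 7.36, against 7.67, 7.59 and 7.41 in MSS pups, with 7.58, 7.62 and 7.56 in CC pups. Both pairs of groups were apart, in opposite directions, and CC lay between MSM and SSM. The interaction was 0.49 (SE 0.099, 95% interval 0.28 to 0.70, unadjusted p 0.000197), and it was 0.42 after quantile normalization and 0.49 without SSM replicate 1 and MSM replicate 3. Without the 3 arrays of low Ttr described further on it was 0.28.

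Arntl, which encodes the clock activator BMAL1, read 7.59, 7.57 and 7.66 in SSM pups, against 7.35, 7.51 and 7.49 in SSS pups. Under mild stress it read 7.54, 7.55 and 7.51 in MSM pups, against 7.74, 7.65 and 7.63 in MSS pups, and CC pups gave 7.58, 7.59 and 7.57. Both pairs were apart in opposite directions, with MSM and SSS below CC. The interaction was 0.30 (SE 0.079, 95% interval 0.13 to 0.47, unadjusted p 0.00203) and 0.24 after quantile normalization. Transcription of Arntl is known to be repressed by REV-ERB and activated by ROR receptors through paired response elements near its start. Because this gene is the clock member with the smallest p, those elements are shown from the RefSeq promoter window of assembly GRCm38.p6, plus strand, with the AAAGTAGGT core in capitals. The first lies at chr7:113207493-113207519, its core 10 bases before the annotated start, and the other at chr7:113207529-113207555, its core 26 bases after it.
Arntl site 1: ttggtcggAAAGTAGGTtagtggtgcg
Arntl site 2: gaaggcagAAAGTAGGTcagggacgga
The core, searched on both strands, occurs in 0.183% of the 32851 windows of the table, and its presence is a description of the sequence only.

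Nars2, the mitochondrial asparaginyl-tRNA synthetase, read 6.97, 6.79 and 6.97 in SSM pups, against 6.54, 6.68 and 6.77 in SSS pups. Under mild stress the MSM pups read 6.73, 6.78 and 6.79, against 7.04, 6.98 and 6.85 in MSS pups. Both pairs were apart in opposite directions, and CC, at 6.74, 6.79 and 6.84, overlapped MSM. Its interaction was 0.43 (SE 0.10, unadjusted p 0.000767). Hibch, an enzyme of valine breakdown in mitochondria, read 6.62, 6.53 and 6.60 in SSM pups, against 6.40, 6.31 and 6.38 in SSS pups. At mild stress it read 6.22, 6.23 and 6.42 in MSM pups, against 6.38, 6.38 and 6.40 in MSS pups, so that only the severe groups were apart. Its interaction was 0.32 (SE 0.084).

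Pknox1, a homeodomain partner of PBX transcription factors, differed mostly under mild stress. It read 6.45, 6.45 and 6.35 in MSM pups, against 6.81, 6.79 and 6.63 in MSS pups. In SSM pups it read 6.84, 6.85 and 6.91, against 6.86, 6.75 and 6.67 in SSS pups, which overlapped. The interaction of 0.43 (SE 0.098) was made of a severe difference of 0.11 and a mild difference of -0.32. Pfn4, of the actin-binding profilin family, had the other shape, with a severe difference of 0.34 and a mild one of -0.04.

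The remaining positive genes overlapped between groups at 1 or both stress levels, except Efcc1. Pcmtd2 had an interaction of 0.52, Zfp799, a zinc finger gene, 0.40, Trmt2a, a tRNA methyltransferase, 0.38, and Arl14ep 0.34. Efcc1, a gene with EF-hand motifs, had 0.35 from its brighter probe set but 0.10 when both of its probe sets were averaged. Over the 12 positive genes SSM was the highest of the 5 groups in 8, SSS the lowest in 7 and MSM the lowest in 5, and CC lay between MSM and MSS in 9.

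Among the negative interactions, Lifr, a subunit of the leukaemia inhibitory factor receptor, had the smallest p. It read 7.24, 7.51 and 7.48 in SSM pups, against 7.63, 7.55 and 7.59 in SSS pups. MSM pups had 7.62, 7.60 and 7.73, against 7.55, 7.42 and 7.49 in MSS pups. Both pairs were apart in opposite directions, although SSM replicate 1 was well below the other SSM arrays. The interaction was -0.35 (SE 0.10, 95% interval -0.56 to -0.13, unadjusted p 0.0041), and -0.22 without SSM replicate 1 and MSM replicate 3. Otud3, a deubiquitinating enzyme, was the other negative gene with both pairs apart, with an interaction of -0.24 (SE 0.085).

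Pclo, which encodes the presynaptic scaffold Piccolo, had a difference under severe stress and little under mild stress. It read 8.11, 8.36 and 8.27 in SSM pups, against 8.85, 8.60 and 8.51 in SSS pups. In MSM pups it read 8.69, 8.73 and 8.62, against 8.80, 8.67 and 8.45 in MSS pups, and CC pups gave 8.48, 8.13 and 8.44. SSM was below SSS without overlap and within reach of the CC values, while MSM and MSS overlapped. The interaction was -0.44 (SE 0.16, 95% interval -0.79 to -0.10, unadjusted p 0.0145). Rims4, of the same active zone family as RIM proteins, had its difference under mild stress instead, with 0.21 there and -0.02 under severe stress.

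Other negative genes with a known role were Myo19, a mitochondrial myosin, at -0.39, Cox20, an assembly factor of cytochrome c oxidase, at -0.49, and Sdk1, a synaptic adhesion molecule, at -0.35. Fras1, a basement membrane protein, had -0.36, and Frmd6, a FERM domain protein, had the most negative value, -0.59 (SE 0.20). Fhod3, a formin that assembles actin, had -0.52 as deposited and -0.32 without SSM replicate 1 and MSM replicate 3. It read 7.57 in MSM replicate 3, against 6.79 and 7.07 in the other MSM arrays. Over the 12 negative genes SSM was the lowest of the 5 groups in 8 and MSM the highest in 9.

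**Figure D3:**
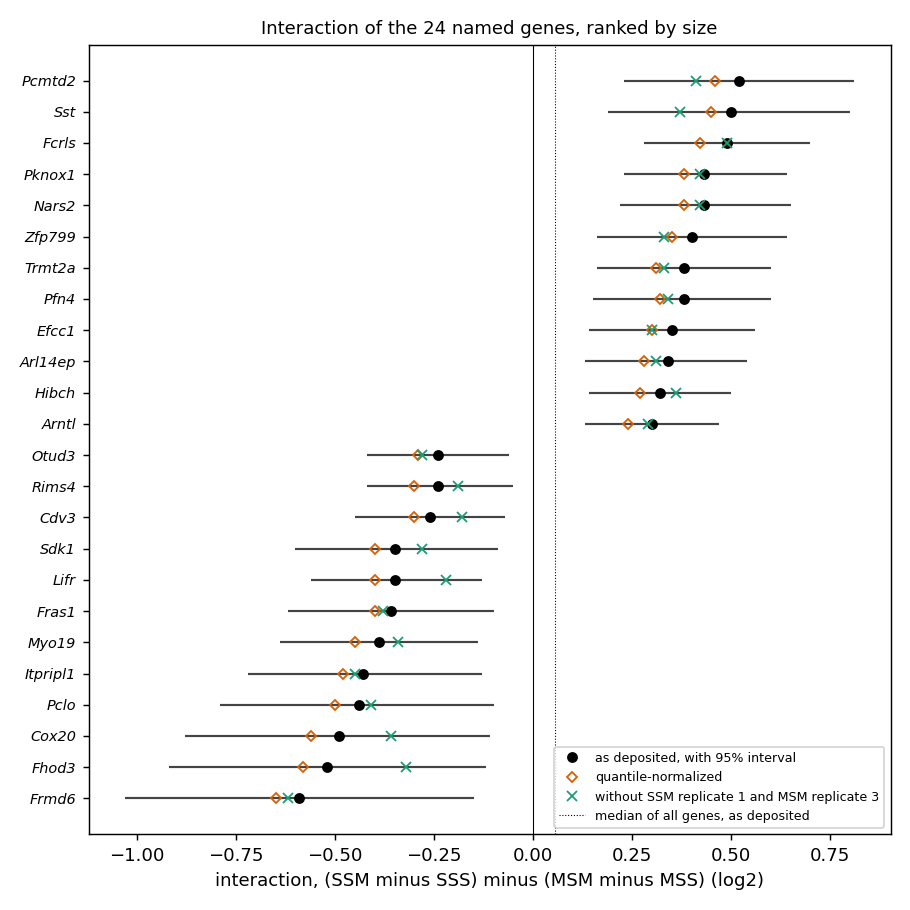
Interaction of the 24 named genes on the log2 scale with its 95% interval (circles and lines), after quantile normalization (diamonds) and without SSM replicate 1 and MSM replicate 3 (crosses); the dotted line is the all-gene median of 0.0554. All 24 keep their sign in the 3 settings, which their choice by p on these same arrays favours. Fhod3, at -0.52 as deposited, is at -0.32 without that pair of arrays.

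The opioid system itself was described next, peptides first and then receptors and their signalling. Of 16 measured peptide, processing and receptor genes, 0 passed the threshold, and 1 (Oprm1) had an unadjusted p under 0.05, beside 3.65% of all genes. A positive interaction was found in 12 of the 16, against 69.5% of all genes. Their median was 0.096 as deposited, 0.065 after quantile normalization and 0.0009 without SSM replicate 1 and MSM replicate 3. Penk, the precursor of enkephalins, read 11.40, 7.38 and 7.51 in SSM pups, against 7.02, 7.17 and 7.42 in SSS pups, and 7.45, 9.30 and 8.27 in MSM pups, against 7.18, 6.92 and 8.09 in MSS pups. Its interaction of 0.61 had an SE of 1.3 and rested on SSM replicate 1, without which and without MSM replicate 3 it was -0.74. Pdyn, the dynorphin precursor, read 7.71 in SSM replicate 1 and 6.46 to 6.96 on the other 11 arrays of the contrast, for an interaction of 0.44 (SE 0.32), and of -0.03 without that pair. Pomc, the precursor of beta-endorphin, had -0.21 (SE 0.11) at levels of 4.40 to 4.86, which are dim.

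Oprm1, the mu receptor gene and the main target of morphine, was dim as well. It read 5.07, 4.90 and 5.08 in SSM pups, against 4.78, 4.85 and 4.77 in SSS pups. Under mild stress the MSM pups read 4.83, 4.88 and 4.89, against 4.96, 4.90 and 4.87 in MSS pups, and CC pups spanned 4.79 to 5.04. The severe groups were apart and the mild groups overlapped, and the CC range held all MSM and MSS values but only 1 of 3 in SSM and 1 of 3 in SSS pups. The interaction was 0.26 (SE 0.098, 95% interval 0.05 to 0.47, unadjusted p 0.0184, adjusted p 0.959 by limma), with 0.22 after quantile normalization. Oprd1, the delta receptor, had -0.10 (SE 0.15). Oprk1, the kappa receptor, had 0.33 (SE 0.48), with 6.15 in SSM replicate 1 against 4.30 and 4.58 in the other SSM arrays.

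Downstream of the receptors, 33 genes of inhibitory G proteins, adenylyl cyclases, potassium and calcium channels, arrestins and RGS proteins had a median interaction of 0.011, and -0.00022 after quantile normalization. Of these 19 were above 0, against 69.5% of all genes, and 16 after quantile normalization, against 50.2%. Only 1 had an unadjusted p under 0.05, beside 3.65% of all genes. That gene was Rgs4, an accelerator of G protein shut-off, with 10.18, 9.60 and 9.79 in SSM pups, against 9.58, 9.42 and 9.60 in SSS pups, and 9.53, 9.67 and 9.25 in MSM pups, against 9.61, 9.54 and 9.54 in MSS pups. Its interaction of 0.40 (SE 0.17) was 0.12 without SSM replicate 1 and MSM replicate 3. Cacna1b, the N-type calcium channel that opioids inhibit, had -0.23 (SE 0.11). The inhibitory subunits Gnai1 and Gnai2 had 0.05 and 0.01, and Gnao1, the most abundant G protein alpha subunit of brain, -0.01.

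In the stress hormone system the median interaction was 0.078 over 23 genes of the corticosteroid and corticotropin system and 0.048 over 22 glucocorticoid-responsive genes, with 0 genes at an unadjusted p under 0.05 in either list. Both medians were 0.02 without SSM replicate 3. Nr3c1, the glucocorticoid receptor, had 0.10 (SE 0.084, 95% interval -0.08 to 0.28). Fkbp5 and Sgk1, induced by glucocorticoids in many tissues, had -0.06 (SE 0.096) and -0.03 (SE 0.11), with intervals of -0.26 to 0.14 and -0.27 to 0.21. Nr3c2, the mineralocorticoid receptor, had 0.50 (SE 0.48) as deposited and 0.04 without SSM replicate 1 and MSM replicate 3, and it read 7.18 in MSM replicate 3, against 8.91 and 9.12 in the other MSM arrays. Crhr1, the main receptor of corticotropin-releasing hormone, had -0.27 (SE 0.26). Among 23 immediate early genes, which report recent neuronal activity, the median was 0.094 and 18 were above 0, against 69.5% of all genes. That median was 0.01 without MSM replicate 3, where the list's mean level was 6.51, against 6.75 to 7.02 on the other arrays of the contrast, and 0.20 without MSM replicate 1. Fos had -0.09 (SE 0.19), Arc 0.25 (SE 0.15) and Bdnf 0.09 (SE 0.17).

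Of 20 measured clock genes, Arntl and Rorb had an unadjusted p under 0.05, in opposite directions, beside 3.65% of all genes. The median was 0.035, and 0.01 without MSM replicate 3. Rorb, a nuclear receptor that is also strong in thalamus, read 6.69, 7.62 and 7.71 in MSM pups, against 6.67, 6.63 and 6.74 in MSS pups, for an interaction of -0.64 (SE 0.27). Dbp, an output gene of the clock, was higher on every morphine array than on any saline array of the same stress level. It read 8.78, 8.46 and 8.41 in SSM pups, against 8.08, 8.01 and 8.08 in SSS pups. MSM pups had 8.19, 8.12 and 7.94, against 7.74, 7.80 and 7.87 in MSS pups. Both pairs were apart with morphine above saline, by 0.49 and 0.28, and the interaction was 0.21 (SE 0.13, 95% interval -0.06 to 0.49) and 0.03 without SSM replicate 1 and MSM replicate 3.

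**Figure D4:**
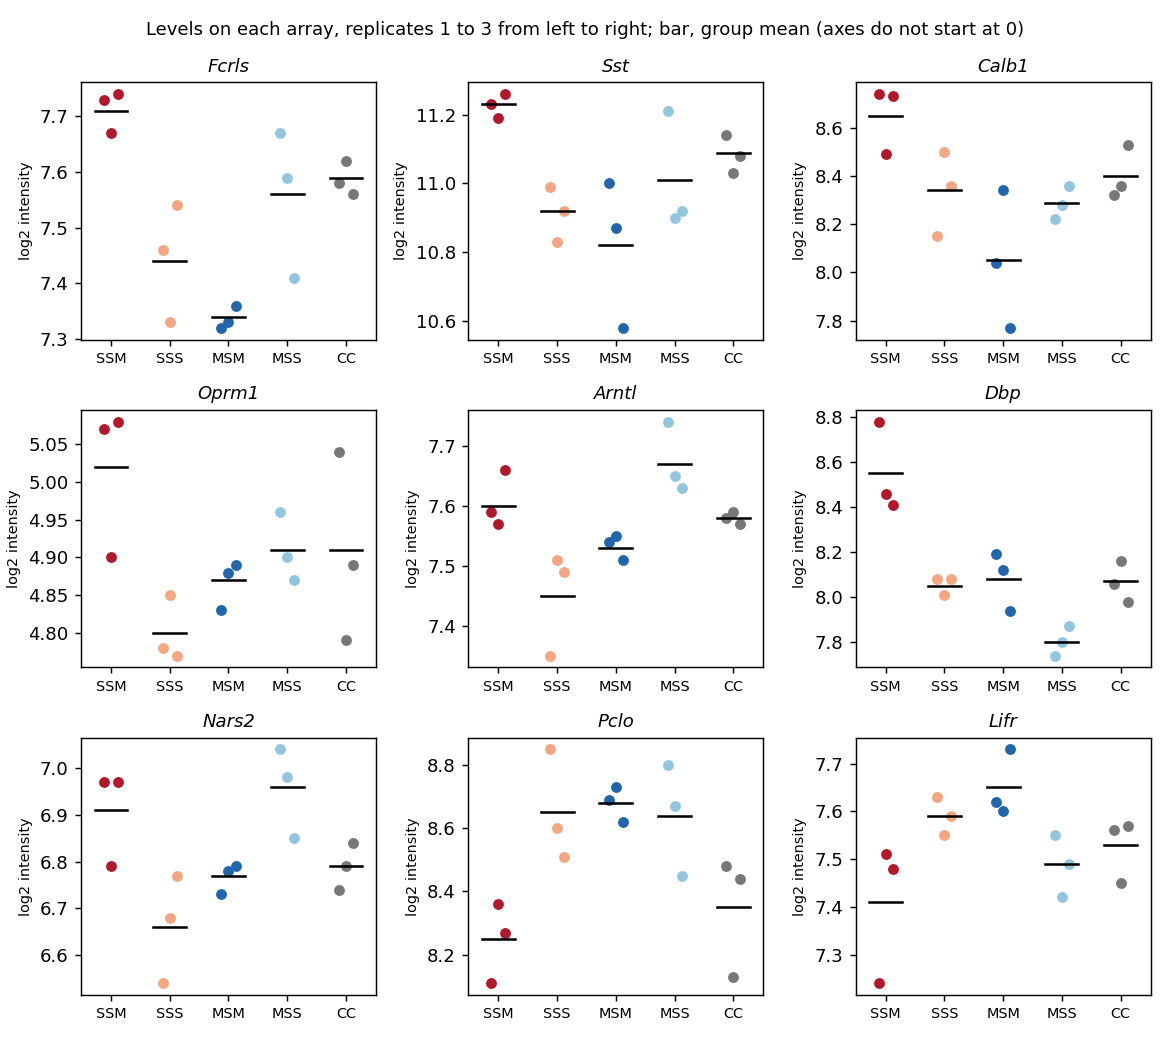
Log2 intensity of 9 genes on each array, with SSM, SSS, MSM, MSS and CC from left to right and replicates 1 to 3 side by side; bars are group means and the axes do not start at 0. Fcrls, Arntl and Nars2 show pairs apart in opposite directions, Dbp pairs apart in the same direction, and Oprm1 and Pclo a difference under severe stress with overlap under mild stress.

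Inhibitory neurons are where the hippocampus carries much of its mu receptor, and 2 of 17 interneuron markers, Sst and Htr3a, had an unadjusted p under 0.05, beside 3.65% of all genes. The median interaction of the list was 0.18, 0.13 after quantile normalization and 0.06 without SSM replicate 1. The list's mean level was highest in SSM replicate 1, at 8.18, and MSM replicate 3, at 8.10, against 7.81 to 8.07 on the other arrays of the contrast. Sst, the peptide somatostatin of dendrite-targeting interneurons, read 11.23, 11.19 and 11.26 in SSM pups, against 10.99, 10.83 and 10.92 in SSS pups. In MSM pups it read 11, 10.87 and 10.58, against 11.21, 10.90 and 10.92 in MSS pups. The severe groups were apart and the mild groups overlapped, with CC at 11.14, 11.03 and 11.08. The interaction was 0.50 (SE 0.14, 95% interval 0.19 to 0.80, unadjusted p 0.00323), and 0.37 without SSM replicate 1 and MSM replicate 3. In bulk tissue, fewer cells of a type and less RNA per cell cannot be told apart.

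Somatostatin is a textbook target of cAMP signalling, the pathway that opioid receptors inhibit, through a cAMP response element in its promoter. For that reason 100 bases of the promoter are shown, from chr16:23890845-23890944 of GRCm38.p6, minus strand, from RefSeq, with the palindrome TGACGTCA in capitals.
Sst promoter: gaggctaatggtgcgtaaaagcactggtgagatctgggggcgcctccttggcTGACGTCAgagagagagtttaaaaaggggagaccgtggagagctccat
The palindrome begins 48 bases before the annotated start, and it occurs in 1.79% of the 32851 windows. Occupancy was not measured.

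Htr3a, a serotonin-gated channel of other interneurons, had an interaction of 0.59 (SE 0.20, unadjusted p 0.0103). It read 6.20, 6.45 and 6.58 in SSM pups, against 6.21, 6.12 and 6.23 in SSS pups, and 6.14, 6.08 and 5.45 in MSM pups, against 6.35, 6.21 and 6.20 in MSS pups. The mild groups were apart, and MSM replicate 3 was the lowest array, without which the interaction was 0.37. Reln, the extracellular protein reelin, had the opposite sign, -0.39 (SE 0.21), and Gad1 and Gad2, which make GABA, had 0.18 and 0.38 with unadjusted p of 0.5 and 0.37. Of 17 genes for GABA receptors, synthesis and chloride transporters 13 were above 0, against 69.5% of all genes, with a median of 0.17. After quantile normalization 11 were above 0, against 50.2%. Only 1, Gabbr2, had an unadjusted p under 0.05, beside 3.65% of all genes, with -0.23 (SE 0.10) and -0.14 without SSM replicate 1. The median of these genes was 0.03 without SSM replicate 1 and 0.01 with SS number, a number in the sample titles described further on, as a fixed block. Their mean level was 9.52 in SSM replicate 1 and 9.42 in MSM replicate 3, against 9.10 to 9.30 on the other arrays of the contrast.

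Among 18 markers of glutamatergic hippocampal neurons, Calb1 alone had an unadjusted p under 0.05, beside 3.65% of all genes. This calcium buffer of dentate granule and CA1 cells read 8.74, 8.49 and 8.73 in SSM pups, against 8.15, 8.50 and 8.36 in SSS pups. Under mild stress the MSM pups read 8.04, 8.34 and 7.77, against 8.22, 8.28 and 8.36 in MSS pups. Both pairs overlapped, and the interaction was 0.56 (SE 0.18, 95% interval 0.18 to 0.94). With Nudt11, a phosphohydrolase of inositol pyrophosphates (0.55, SE 0.16), it was the largest positive value among expressed genes at an unadjusted p under 0.01. The median of the 18 markers was 0.13, made of -0.11 under severe and -0.27 under mild stress, and their mean level was 8.04 in MSM replicate 3, against 8.55 to 8.98 on the other arrays of the contrast. That median was -0.13 without MSM replicate 3, 0.32 without MSM replicate 1 and 0.0077 without SSM replicate 1 and MSM replicate 3.

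Of 24 genes of the synapse and of vesicle release, 10 were above 0, against 69.5% of all genes. After quantile normalization 9 were, against 50.2%. Their median was -0.041, and -0.086 after quantile normalization. At an unadjusted p under 0.05 there were 1 positive and 2 negative members, beside 3.26% and 0.386% of all genes. Besides Pclo, Rims1, a central organiser of the active zone, had -0.25 (SE 0.11), and Bsn, the relative of Pclo called Bassoon, had -0.35 at an unadjusted p of 0.066. Syt5, a synaptotagmin, went the other way with 0.38 (SE 0.12, unadjusted p 0.00804). It read 10.03, 9.85 and 9.93 in SSM pups, against 9.79, 9.78 and 9.78 in SSS pups, and 9.61, 9.51 and 9.25 in MSM pups, against 9.83, 9.60 and 9.61 in MSS pups. The severe groups were apart, and the mild groups overlapped. Among 20 glutamate receptor genes, Grin2c alone had an unadjusted p under 0.05, beside 3.65% of all genes. Its interaction was 0.43 (SE 0.19), and 0.25 without SSM replicate 1 and MSM replicate 3.

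Microglia formed the list with the most members at an unadjusted p under 0.05, 5 of 15, beside 3.26% of all genes with a positive interaction at that level. The 5 were Fcrls, Tyrobp, a signalling adaptor of microglial receptors, C1qb, a complement chain, Fcer1g, an Fc receptor chain, and Aif1, also known as Iba1. Of the 15, 14 were above 0, against 69.5% of all genes, and 13 after quantile normalization, against 50.2%. Trem2 alone, with -0.09, was below 0 as deposited. The median was 0.15, made of 0.18 under severe and 0.00 under mild stress, and 0.094 after quantile normalization. Tyrobp read 6.30, 6.15 and 6.22 in SSM pups, against 6.11, 6.01 and 5.94 in SSS pups. MSM pups had 6.00, 6.01 and 6.04, against 6.08, 6.07 and 6.12 in MSS pups. Both pairs were apart in opposite directions, and the interaction was 0.28 (SE 0.093).

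The list's mean level was 7.13, 6.83 and 6.95 in SSM pups, against 6.78, 6.76 and 6.85 in SSS pups, so that SSM replicate 1 was the highest array. It was 6.80, 6.82 and 6.79 in MSM pups, against 6.83, 6.85 and 6.79 in MSS pups. Without SSM replicate 1 and MSM replicate 3 the median interaction was 0.05, and -0.018 with quantile normalization as well. Fcrls had 0.49 and Tyrobp 0.25 without that pair, while values of C1qb, Fcer1g and Aif1 without it are not given here. Inflammatory and acute-phase genes, 19 in number, had a median of -0.02. Tlr4, a receptor of bacterial lipopolysaccharide, alone had an unadjusted p under 0.05 among them, with 0.28 (SE 0.099) at dim levels of 4.18 to 4.62.

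Other glia, like microglia, showed no member past the threshold. Astrocyte markers had a median of 0.085 over 14 genes, with Glul, glutamine synthetase, at 0.26 (SE 0.12) and 0.15 without MSM replicate 3. The astrocyte median was 0.05 without SSM replicate 1. The 15 markers of myelin and mature oligodendrocytes had a morphine difference of 0.41 under severe and 0.33 under mild stress, and a median interaction of 0.0099. Their mean level was 7.22 in SSM replicate 1 and 7.09 in MSM replicate 3, against 6.04 to 6.63 on the other arrays of the contrast. Oligodendrocyte precursor markers had a median of -0.045.

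Genes of protein quality control and of mitochondria had small interactions, most of them above 0, as were 69.5% of all genes as deposited and 50.2% after quantile normalization. Of 28 genes that respond to unfolded proteins or a lack of amino acids, 24 were above 0 as deposited and 20 after quantile normalization, with medians of 0.12 and 0.06, and the median as deposited was 0.07 without SSS replicate 2. Psph, the last enzyme of serine synthesis, was the only member at an unadjusted p under 0.05, with 0.31 (SE 0.13) and 0.20 without MSM replicate 3, and Hspa5, the chaperone BiP, had 0.13 at an unadjusted p of 0.35. Of 32 subunits of oxidative phosphorylation 30 were above 0 as deposited and 24 after quantile normalization, with medians of 0.074 and 0.031, and Ndufa1 and Ndufa2 of complex I had an unadjusted p under 0.05, both with 0.26. Of 25 proteasome subunits 23 were above 0 as deposited and 21 after quantile normalization, with a median of 0.082 and 0 members at an unadjusted p under 0.05. Without SSM replicate 3 the medians of these subunits were 0.03 for oxidative phosphorylation and 0.05 for the proteasome. These medians are to be set against 0.0554 for all genes, and after quantile normalization against 0.00049.

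Among heat shock proteins and co-chaperones Dnajb6 had 0.52 (SE 0.15, unadjusted p 0.00363) at dim levels of 4.62 to 5.39. It read 4.75, 4.77 and 4.97 in SSM pups, against 4.62, 4.84 and 4.62 in SSS pups, and 4.75, 4.77 and 4.99 in MSM pups, against 5.17, 5.39 and 5.11 in MSS pups. The MSS arrays were the highest of the contrast, and CC gave 4.94, 4.62 and 4.62. In the list of hypoxia and glucose supply, Car9, a carbonic anhydrase induced by hypoxia, had 0.31 (SE 0.12), and Vegfa, the vascular growth factor induced by it too, had -0.26 (SE 0.11). Kbtbd7, which earlier results on these data single out, had 0.18 (SE 0.073, unadjusted p 0.0291), made of 0.07 under severe and -0.11 under mild stress.

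Over all 39 lists, 723 distinct genes were measured, and 0 passed the threshold. Of these 26 had an unadjusted p under 0.05, 20 positive and 6 negative, a share of 3.6% that is close to the 3.65% of all genes. The medians of the 26 lists of function ran from -0.082 to 0.17, and 30 of all 39 list medians were above 0 as deposited, against 21 after quantile normalization. For 9 lists the sign of the median differed between the scalings.

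**Figure D5:**
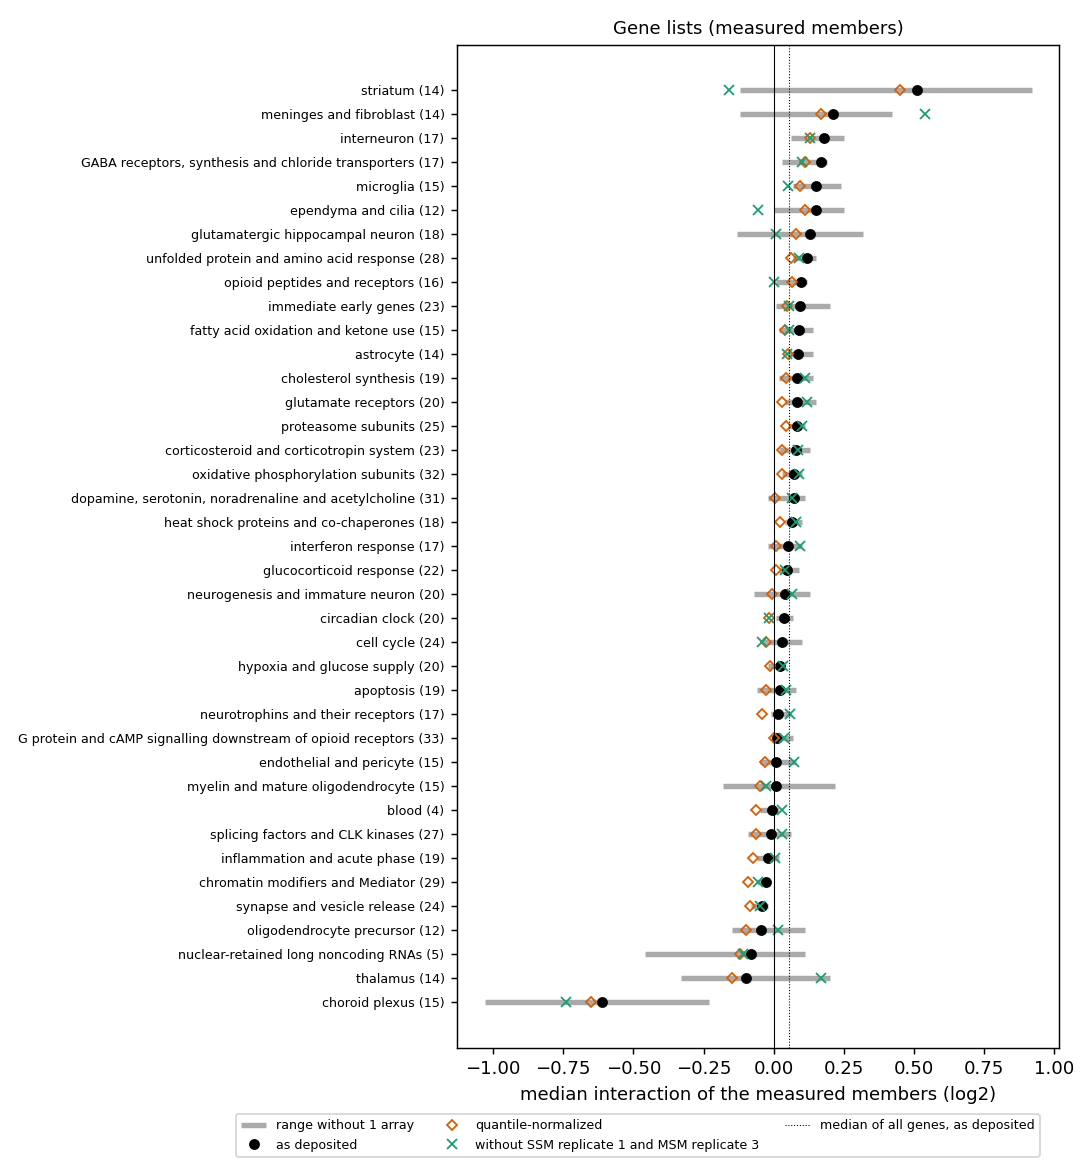
Median interaction of each gene list on the log2 scale as deposited (circles), after quantile normalization (diamonds) and without SSM replicate 1 and MSM replicate 3 (crosses); grey lines span the values without single arrays and the dotted line is the all-gene median. Striatum, at 0.51, and choroid plexus, at -0.61, stand at the ends with wide spans, and the striatum median is -0.16 without that pair of arrays.

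The 2 ends of the range of list medians were held by markers of striatum and of choroid plexus, tissues near the hippocampus. For 14 striatum markers the median interaction was 0.51, with 0 members at an unadjusted p under 0.05. Their mean level was 8.50, 6.36 and 6.55 in SSM pups, against 6.31, 6.25 and 6.31 in SSS pups, and 6.33, 7.12 and 6.68 in MSM pups, against 6.27, 6.23 and 6.69 in MSS pups. SSM replicate 1 was the highest array, followed by CC replicate 1, at 7.54, and MSM replicate 2, at 7.12. Without SSM replicate 1 and MSM replicate 3, a pair that leaves MSM replicate 2 in, the median was -0.16. Markers of meninges and fibroblasts, 14 in number, had a median of 0.21, which was 0.54 without that pair and -0.12 without SSM replicate 3. For 14 thalamus markers the median was -0.10, and 0.17 without that pair. Their mean level was 8.01 in MSM replicate 3 and 6.55 to 6.97 on the other arrays of the contrast, and Tcf7l2, a transcription factor of thalamic neurons, read 9.85 there.

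For 15 choroid plexus markers the median was -0.61, with 14 of 15 below 0, while 69.5% of all genes were above 0. Again 0 had an unadjusted p under 0.05. Ttr, transthyretin, the main secreted product of that epithelium, read 13.24, 12.71 and 13.07 in SSM pups, against 12.91, 8.87 and 13.22 in SSS pups, and 13.18, 12.88 and 13.24 in MSM pups, against 9.17, 8.99 and 13.06 in MSS pups. MSS replicates 1 and 2 and SSS replicate 2 were low, and the interaction of -1.35 had an SE of 1.4. Without those 3 arrays the median of the list was -0.22 and the interaction of Ttr -0.10. What part such tissue had in the interactions of other genes was not tested.

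The sample titles also carry an SS number of unstated meaning. All mild-stress arrays share SS number 11, whereas the severe ones carry 8 to 10, and only number 8 holds both SSM and SSS, 1 array each. With that number as a fixed block the severe difference rests on SSM replicate 1 and SSS replicate 3 alone, and 2 genes (0.01%) had an adjusted p under 0.05 by limma, 0.0211 each. They were Rxrg, a retinoid receptor, at 3.25 and Gpx6, a glutathione peroxidase, at 2.70, and were chosen here after their values were seen. Rxrg read 8.50, 5.57 and 5.63 in SSM pups, against 5.43, 5.33 and 5.23 in SSS pups, and Gpx6 7.15, 4.40 and 4.67, against 4.60, 4.51 and 4.35. Both were high in SSM replicate 1, the array with the highest striatum markers. All 24 named genes kept their sign with this block, Fcrls at 0.41, Arntl at 0.24, Sst at 0.49 and Pclo at -0.44. Their choice by p on these same arrays favours a kept sign.

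Predicted genes, clones, olfactory receptors and small RNAs were tested with the rest, and 95 of 3021 of them had an unadjusted p under 0.05, beside 3.65% of all genes. The microRNA gene with the smallest p on the negative side was Mir138-2, which hosts miR-138, a neuronal microRNA known to restrain dendritic spine growth in rat neurons. Its probe set was dim, below the median gene level of 6.25. It read 5.16, 5.11 and 5.33 in SSM pups, against 5.40, 5.38 and 5.48 in SSS pups. In MSM pups it read 5.40, 5.58 and 5.42, against 5.39, 5.32 and 5.40 in MSS pups, with CC pups between 5.34 and 5.57. The severe groups were apart, with SSM the lowest group by its mean, and the mild groups met at 5.40. The interaction was -0.31 (SE 0.11, 95% interval -0.54 to -0.09, unadjusted p 0.0105), and -0.34 after quantile normalization.
The mature sequences of this gene are given from RefSeq, GRCm38.p6, plus strand, as a description only, with the seed at bases 2 to 8 in capitals. Their seeds differ. The array does not separate the mature products from the precursor, so the probe set gives no level of either mature microRNA. The mature sequences lie at chr8:94324312-94324334 and chr8:94324359-94324379.
mmu-miR-138-5p: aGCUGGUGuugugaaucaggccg
mmu-miR-138-2-3p: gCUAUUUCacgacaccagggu
The others of this kind were the olfactory receptor Olfr715b at 0.32 (SE 0.087) and the transcript AY358078 at 0.31 (SE 0.09), both dim, and the clone 1190007I07Rik at -0.60 (SE 0.19).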

How the data were processed

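The authors deposited log2 intensities for 15 single-colour Affymetrix Mouse Gene 1.0 ST arrays, made with RMA per the submitters' processing notes. RMA corrects background, normalizes and summarises probes; its software and the genome build are not stated there. Of 35557 probe sets, 21789 carry 1 gene symbol in the platform annotation, 1621 several and 12147 none, and 0 columns were unused. The brightest single-symbol probe set per gene over all arrays gave 19938 genes, 19919 found in the RefSeq table of GRCm38.p6. No filter on dim genes was set. Groups came from the treatment labels. limma 3.58.1 in R 4.3.3 fitted a mean per group on all 15 arrays (10 residual and 4.61 prior degrees of freedom), and the two-sided moderated test was adjusted by Benjamini-Hochberg over all genes at 0.05. The number of arrays limits the precision.

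Named were the 12 genes of smallest p in each direction among those at or above the median level, the largest interactions at an unadjusted p under 0.01, up to 3 members of each of 39 lists (822 members, 742 measured, 1 through an older symbol), fixed opioid, stress and clock genes, and the leading ones of 3021 predicted, clone, receptor and small RNA genes. Others are marked as chosen after their values were seen. Members and lists were chosen with earlier results of these data known. Lists got no test. Alternatives were median centring, quantile normalization, brighter genes only, no CC arrays, omission of arrays singly or together, SS number as a block, trended or robust variances, averaged probe sets, and a threshold of 0.1.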

Additional observations from a re-analysis of the deposited data

How the results depend on the processing

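No gene passed the threshold under any alternative except with SS number as a fixed block, which gave 2; the count was also 0 at a threshold of 0.1 and, in an alternative added after seeing the data, over all probe sets. Leaving out 1 array gave smallest adjusted p of 0.242 to 0.999. Genes at an unadjusted p under 0.05 with a positive interaction numbered 347 to 1436 without 1 array (1201 without SSM replicate 1, 1436 without SSM replicate 2, 347 without SSM replicate 3 and 399 without SSS replicate 2). They numbered 983 without SSM replicate 1 and MSM replicate 3, 298 without the 3 arrays of low Ttr, 374 among genes at or above the median level, and 361 with quantile normalization and no SSM replicate 3. Negative ones numbered 67 to 345 without 1 array, 264 after median centring, 405 after quantile normalization, 426 with quantile normalization and neither SSM replicate 1 nor MSM replicate 3, 342 with it and no SSM replicate 3, and 401 with SS number as a fixed block. The median over all genes was 0.0032 to 0.081 without 1 array, 0.00049 after quantile normalization, -0.00068 and -0.0012 in the same 2 combinations, and -0.0014 with the fixed block. With 160 genes and 25 settings, 3694 of 3954 values moved by less than 1 SD and 93 changed sign, in 46 genes; of 974 list medians 903 moved by less than 1 SD. The cause of these changes was not tested. Where 1 array is left in a group, it is assumed to vary like the others. No paired analysis was possible because the replicate numbers only follow the order of the samples.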
